A study of Homo sapiens with 10 samples.

Results

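Expression of genes that sense and relieve protein folding stress in the endoplasmic reticulum (ER) was measured in MRC5 cells, a human foetal lung fibroblast line, after exposure to medium from A549 cells, a line from a lung adenocarcinoma that is widely used as a model of alveolar epithelium. The set was fixed by name and comprised 33 genes: the stress sensors and effectors ATF6, ERN1, EIF2AK3, XBP1 and PPP1R15A, the ER chaperones, the disulfide isomerases with the oxidase ERO1B, the genes of ER-associated degradation, and a translocon and a vesicle coat gene. Of these, 30 were among the 14054 genes of the count table and 29 passed the filter on low counts. MANF, PDIA3 and EDEM2 were not analysed here. The static group was 5 libraries of MRC5 cells given supernatant of A549 cells kept without stretch, and the stretch group was 5 libraries of MRC5 cells given supernatant of stretched A549 cells. The study asked whether factors secreted by stretched epithelial cells activate fibroblasts. Untreated MRC5 cells and fresh medium are not among these groups, so each value compares one conditioned medium with the other. All libraries came from the same fibroblast line, and the labels do not say whether each had a culture of its own. The p-values therefore rest on the spread between these libraries, which may be technical. The time of exposure is given as 24 hours in the sample descriptions and as 6 hours in the series design. Libraries are named by the number in their title, odd for static and even for stretch medium.

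Secreted and membrane proteins fold in the ER with the help of chaperones, lectins and disulfide isomerases. When unfolded proteins build up, the membrane sensors ATF6, IRE1 (encoded by ERN1) and PERK (encoded by EIF2AK3) raise folding capacity and slow translation, and proteins that fail to fold are moved to the cytosol and degraded by the proteasome. Fibroblasts depend on this machinery because they secrete large amounts of procollagen, whose proline hydroxylase contains the disulfide isomerase P4HB.

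The response is known to act through short promoter elements, and promoters of the set that hold one are shown here. The genes are later counted by ERSE or ERSE-II match as a description only. RefSeq start sites on GRCh38.p14, with 250 bases before and 50 bases after each start, were found for 28 of the 30 genes (not for DERL1 and SEC24D). The ER stress response element (ERSE), bound by ATF6 and the factor NF-Y, was searched on both strands as CCAAT, any 9 bases and CCACG. It was found in 8 of the 28 genes (28.6%), and in 25 of 27305 genes of the promoter table (0.0916%). ERSE-II was searched as ATTGG, any 1 base and CCACG, and was found in 3 genes, HERPUD1, HYOU1 and SDF2L1 (10.7%, against 0.0696% of the table). The unfolded protein response element TGACGTGG (UPRE), bound by XBP1 and ATF6, was found in HYOU1 and VCP (7.14%, against 0.927%). In HYOU1 the UPRE overlapped an ERSE-II match. The composite C/EBP-ATF element TGATGNAA, a type of site bound by ATF4, was found in HERPUD1 alone (3.57%, against 4.46%). These are matches of letters in a window around the annotated start, not measured binding. The set was chosen as genes of this response and is itself part of the promoter table. Its larger shares of ERSE, ERSE-II and UPRE are therefore no independent result.

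The stretches below run 5′ to 3′ on the strand of the gene, with the matched element in capitals. That of HSPA5 (chr9:125241374-125241453, minus strand) and that of XBP1 (chr22:28800600-28800679, minus strand) lie from 110 to 31 bases before the start and hold an ERSE each. That of CALR (chr19:12938369-12938418, plus strand) holds an ERSE on the opposite strand. That of HERPUD1 (chr16:56931952-56932041, plus strand) holds a C/EBP-ATF element on the opposite strand and then an ERSE-II, and that of SDF2L1 (chr22:21642102-21642141, plus strand) an ERSE-II on the opposite strand.
HSPA5: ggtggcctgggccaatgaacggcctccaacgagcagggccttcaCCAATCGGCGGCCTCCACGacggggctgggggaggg
XBP1: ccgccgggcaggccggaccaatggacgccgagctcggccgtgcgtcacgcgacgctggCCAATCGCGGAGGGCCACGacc
CALR: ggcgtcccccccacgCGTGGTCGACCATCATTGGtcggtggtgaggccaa
HERPUD1: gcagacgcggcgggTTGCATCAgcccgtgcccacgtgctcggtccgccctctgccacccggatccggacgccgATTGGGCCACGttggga
SDF2L1: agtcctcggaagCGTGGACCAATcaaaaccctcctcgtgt

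HSP90B1 had an ERSE match on each strand, at chr12:103930216-103930234 and chr12:103930321-103930339. CANX had a single ERSE match, at chr5:179698778-179698796, which fell in the windows of 3 of its alternative starts. The matches in order, each on its own strand, were:
HSP90B1, first: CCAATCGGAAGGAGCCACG
HSP90B1, second: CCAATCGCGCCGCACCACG
CANX: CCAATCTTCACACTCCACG

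**Figure D1:**
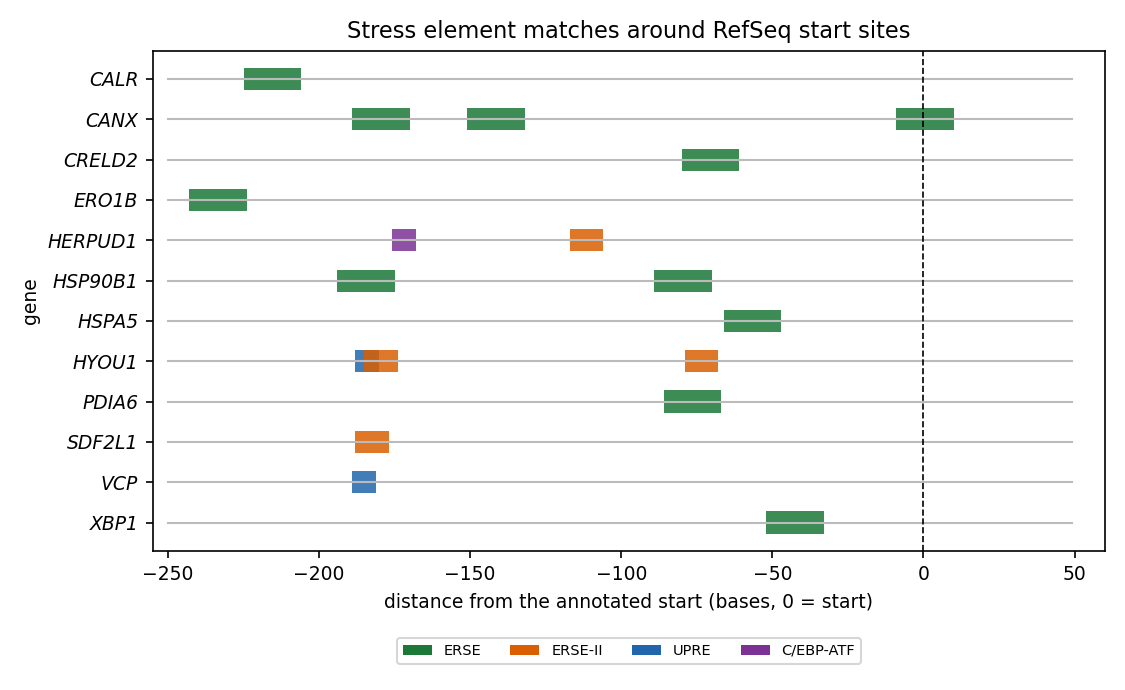
Position of element matches in the 12 genes with a match. The horizontal axis is the distance in bases from the annotated start, with 0 at the start, and each row is a gene. Green bars are ERSE, orange ERSE-II, blue UPRE and purple C/EBP-ATF matches. The 3 bars of CANX are 1 site seen from 3 alternative starts, and the ERSE bars of HSPA5 and XBP1 end 48 and 34 bases before the start.

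Libraries held 4231653 to 8455073 counts, and levels are given as CPM, that is, counts relative to the size of each library, with sizes adjusted by the trimmed mean of M-values. Because each gene is read through a short amplified target, levels were compared between libraries and not between genes. The 10 fibroblast markers were all present, with summed levels of 14571 to 16538 CPM in the static and 12661 to 16561 CPM in the stretch libraries. Among them, COL1A1, a gene of type I collagen, was at 2749 ± 246 and 3211 ± 333 CPM, COL3A1, of type III collagen, at 1125 ± 209 and 1015 ± 124 CPM, and the surface marker THY1 at 1206 ± 98.6 and 1240.4 ± 134 CPM (static and stretch medium, SD, n = 5 each). The unadjusted p of COL1A1 was 0.0357 and edgeR's adjusted p 0.273. VIM, the intermediate filament gene vimentin, is named after its values were seen: it was at 1579.7 CPM in stretch 2, against 4057 to 5073 CPM in the static and 4091 to 4328 CPM in the other stretch libraries (-0.38 ± 0.20, adjusted p = 0.344). Of 13 A549 and epithelial markers, 7 were in the table, at summed levels of 20.9 to 27.9 and 23.0 to 30.7 CPM, with CDH1, ALDH3A1 and CDH17 at no more than 0.522 CPM in any library. EPCAM was at 2.81 ± 0.679 and 2.80 ± 0.620 CPM, KRT19 at 11.7 ± 1.66 and 12.8 ± 1.94 CPM, CLDN4 at 6.76 ± 2.53 and 7.85 ± 1.81 CPM and AKR1B10 at 3.17 ± 0.734 and 2.86 ± 0.935 CPM. Of 9 endothelial and immune markers, 6 were in the table. CD68, a lysosomal protein gene that fibroblasts also express, was at 199 ± 6.16 and 202 ± 21.3 CPM and KDR at 4.35 ± 1.74 and 5.91 ± 1.33 CPM, while PECAM1, VWF, CD14 and LYZ did not pass the filter, at no more than 2.92 CPM in any library. In bulk RNA, fewer cells of a type and less RNA per cell cannot be told apart.

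The genes with the smallest p-values lay on both sides of 0. Lower levels with stretch medium were recorded for the transcription factor gene XBP1, the degradation lectin EDEM1, the lectin chaperone CANX and the isomerase PDIA4, and higher levels for the degradation genes SEL1L, VCP, SYVN1 and OS9 and the phosphatase subunit gene PPP1R15A. In edgeR's quasi-likelihood test with Benjamini-Hochberg adjustment over 10968 genes, 0 of the 29 genes passed an adjusted p of 0.05, and 0% of all genes did. At an unadjusted p under 0.05, 5 of the 29 were higher with stretch medium, where the share among all genes was 8.08%, and 4 were lower, where it was 8.37%. The 2 groups did not overlap for 3 genes that were higher, SEL1L, VCP and SEC24D (1.74% of all genes), and for 0 that were lower (1.98% of all genes). DESeq2 called SEL1L and VCP as higher, where it called 1.29% of all genes with an adjusted p, and XBP1 and EDEM1 as lower, where it called 1.55%. Limma-voom called 0 of the 29. Log2 fold changes, stretch minus static medium, ran from -0.56 (EDEM1) to 0.58 (PPP1R15A), with 14 above and 15 below 0 and a median of -0.022, beside 0.00035 over all genes tested.

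**Figure D2:**
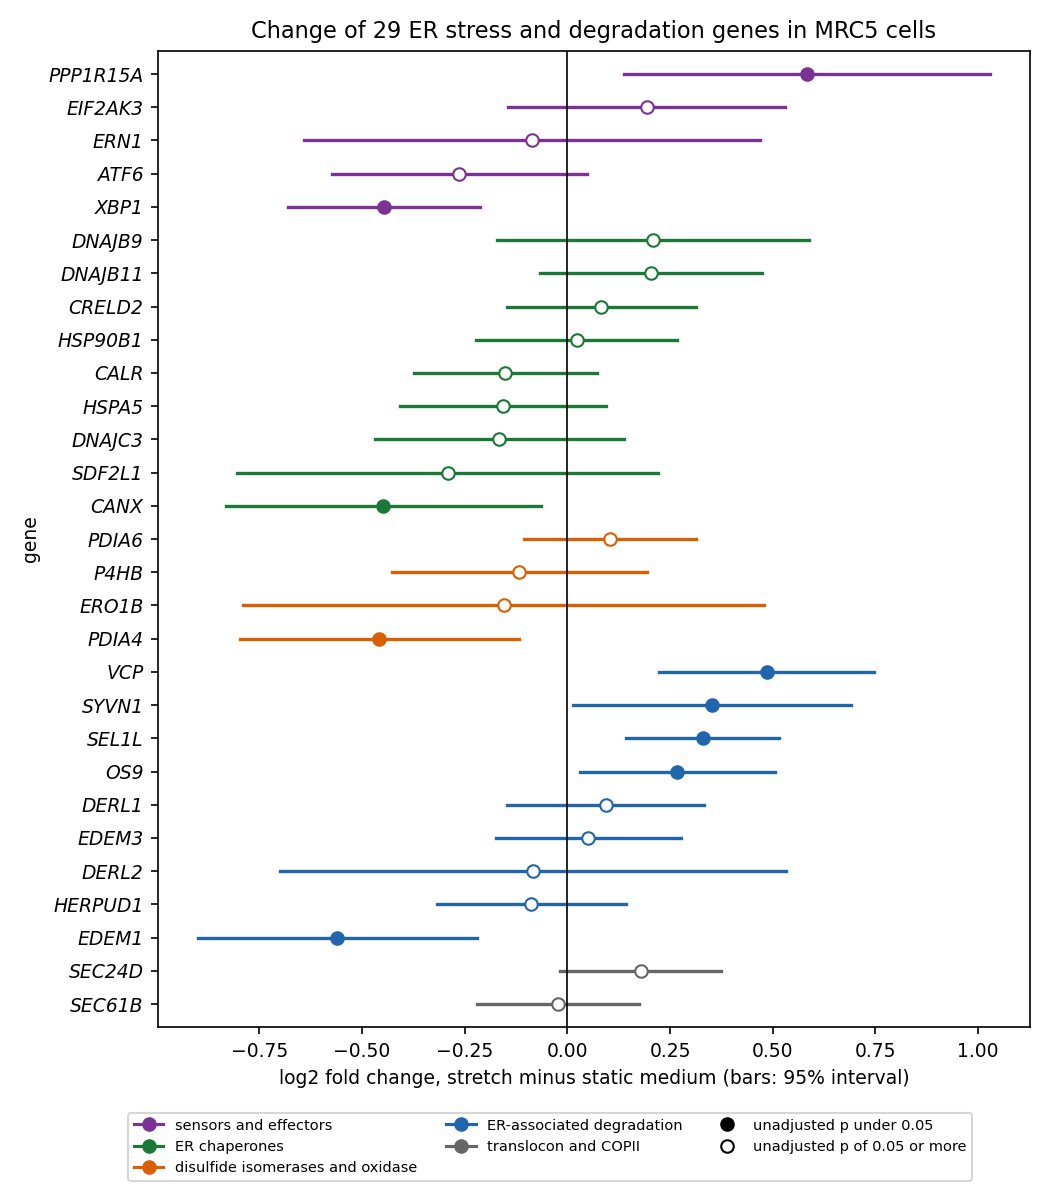
Log2 fold change of the 29 genes tested, stretch minus static medium, on the horizontal axis, with bars for the 95% interval of the fit over all genes (5 libraries per group). Colours mark the role of each gene and filled points an unadjusted p under 0.05. The 5 filled points above 0 are PPP1R15A and 4 degradation genes, and the 4 below 0 are XBP1, CANX, PDIA4 and the degradation gene EDEM1.

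Of the 5 sensor and effector genes, 1 was higher and 1 lower at an unadjusted p under 0.05, beside 8.08% and 8.37% of all genes. The smallest p of the set was that of XBP1. XBP1 encodes a transcription factor made active when IRE1 splices its RNA, and the counts are per gene, so they do not separate its spliced from its unspliced form. Its levels (GRCh38 chromosome 22, 28794555 to 28800597, as for all gene positions given) were 168, 172, 156, 172 and 140.3 CPM in static 1, 3, 5, 7 and 9 and 104, 143, 109.8, 110.2 and 126 CPM in stretch 2, 4, 6, 8 and 10. Every stretch library except stretch 4 lay below every static library, and stretch 4 lay just above static 9. The means were 162 ± 13.5 and 119 ± 15.8 CPM (SD, n = 5 each), a log2 fold change of -0.45 ± 0.11 with a 95% interval of -0.68 to -0.21 (edgeR adjusted p = 0.109, DESeq2 adjusted p = 0.0150). Without stretch 4 the log2 fold change was -0.52 and edgeR's adjusted p 0.0560. That was the smallest adjusted p of XBP1 among the fits that left out a library, and the largest was 0.226.

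PPP1R15A, also called GADD34, directs a phosphatase to the translation factor eIF2 and so restarts translation after the PERK signal (chromosome 19, 48872392 to 48876057). It was at 17.4, 23.1, 18.9, 12.8 and 26.0 CPM in static 1, 3, 5, 7 and 9 and at 40.5, 18.7, 35.2, 26.9 and 26.1 CPM in stretch 2, 4, 6, 8 and 10. The groups overlapped, because stretch 4 lay within the static range while the other stretch libraries were all above the highest static value, stretch 10 by little. The log2 fold change of 0.58 ± 0.21 was the highest of the set, with an interval of 0.14 to 1.03 (adjusted p = 0.192 in edgeR and 0.0990 in DESeq2).

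The 3 sensor genes overlapped between media, and none had an unadjusted p under 0.05. ATF6, whose protein is cut in the Golgi to free a transcription factor, was at 99.8 to 178 CPM with static and 88.2 to 137 CPM with stretch medium, with an interval of -0.57 to 0.047 for the log2 fold change. EIF2AK3, the gene of the kinase PERK, was at 14.9 to 24.9 CPM with static and 20.5 to 28.3 CPM with stretch medium, with 0.19 as its log2 fold change and an interval of -0.14 to 0.53. ERN1, the gene of the kinase and nuclease IRE1, was at 3.41 to 9.67 CPM with static and 3.66 to 7.02 CPM with stretch medium. Its interval of -0.64 to 0.47 was wide, and static 3 alone set the top of the static range.

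**Figure D3:**
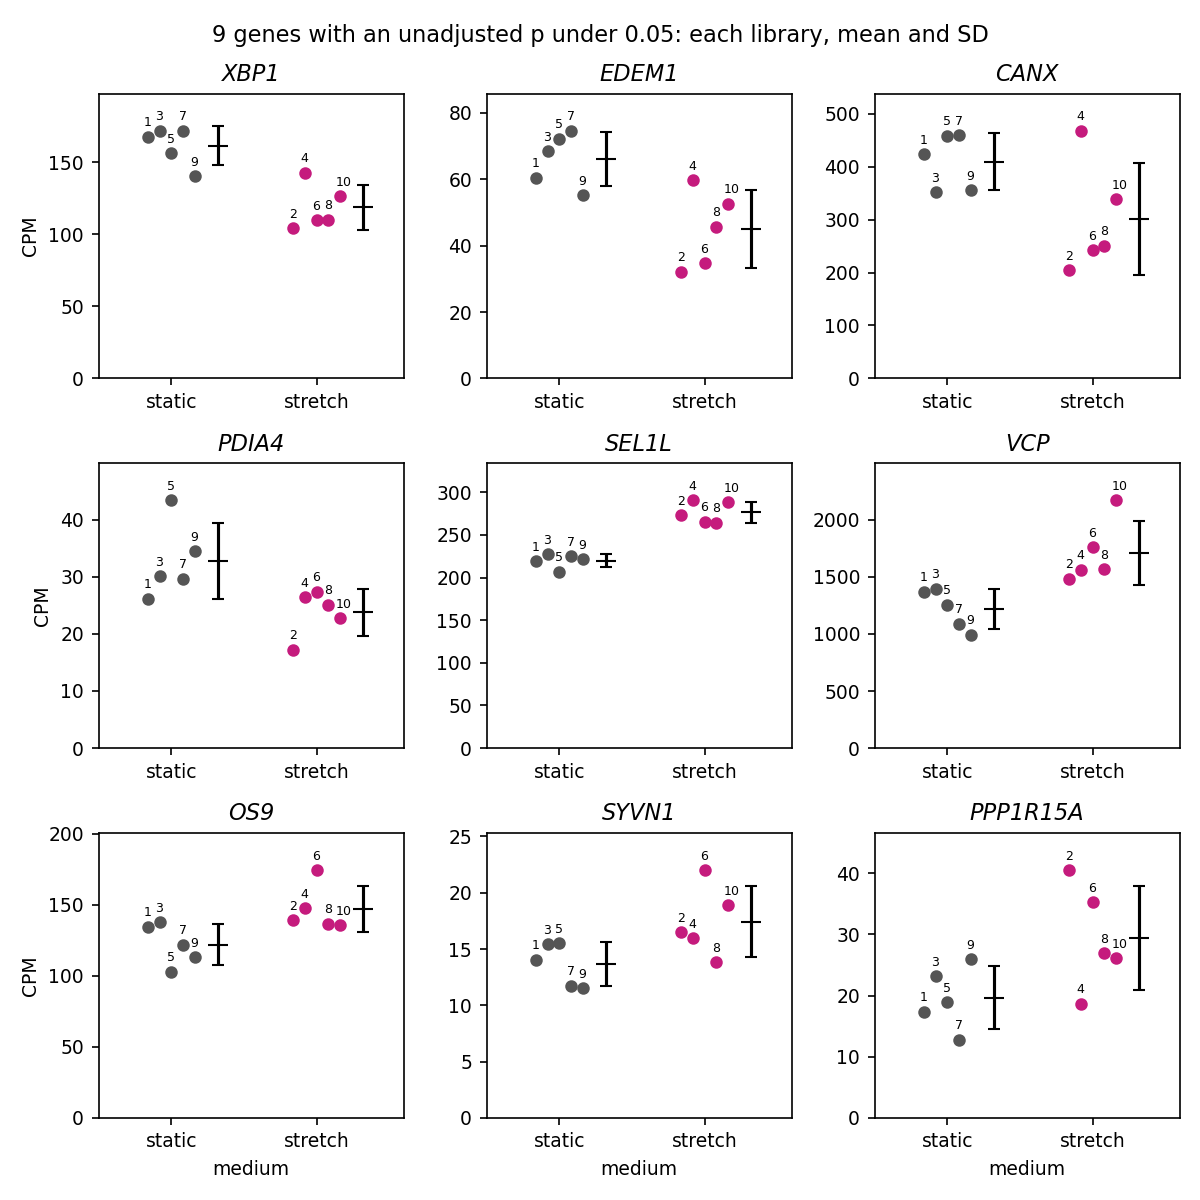
CPM of the 9 genes with an unadjusted p under 0.05, each on its own vertical axis from 0, in static (grey) and stretch (magenta) medium. Points are libraries labelled by title number, and the bar beside them is the mean and SD of 5 libraries. The groups are apart for SEL1L and VCP, and stretch 4 lies highest of the stretch libraries for XBP1, EDEM1 and CANX and lowest for PPP1R15A.

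Of the 9 chaperone genes tested, 0 were higher and 1, CANX, was lower at an unadjusted p under 0.05, beside 8.08% and 8.37% of all genes. All 9 overlapped between groups, where 1.74% of all genes were higher and 1.98% lower with no overlap. HSPA5 encodes BiP, the main Hsp70 chaperone of the ER and the standard readout of the response (chromosome 9, 125234853 to 125241330). It was at 786, 691, 887, 983 and 1002 CPM in the static and 750.4, 671, 917, 809.7 and 756 CPM in the stretch libraries, in the order of their numbers. The groups overlapped over most of their range, and the log2 fold change was -0.16 ± 0.12 (interval -0.41 to 0.095, adjusted p = 0.533). HSP90B1, the ER form of Hsp90, was at 1226 to 1441 CPM with static and 1051 to 1635 CPM with stretch medium, and its estimate of 0.022 changed sign when single libraries were left out (-0.054 to 0.10).

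Calnexin and calreticulin are lectins that hold newly made glycoproteins until they are folded, the first bound to the membrane and the second free in the lumen. CANX (chromosome 5, 179678628 to 179730925) was at 423, 352, 458, 459 and 356 CPM in static 1, 3, 5, 7 and 9 and at 204, 468, 242, 251 and 338 CPM in stretch 2, 4, 6, 8 and 10. In this gene stretch 4 was the highest of all 10 libraries, and the other 4 stretch libraries lay below all static ones. The log2 fold change was -0.45 ± 0.18 (interval -0.83 to -0.065, adjusted p = 0.243), and it was -0.67 without stretch 4, with an adjusted p of 0.0568. That was the smallest adjusted p among the 10 fits that left out a library, and the largest was 0.428. The unadjusted p of CANX was above 0.05 in 5 of these 10 fits. CALR was at 3668 to 4929.7 CPM with static and 3504 to 4554 CPM with stretch medium, with a log2 fold change of -0.15 ± 0.11 and overlapping groups.

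The co-chaperones that serve BiP gave small differences in both directions. DNAJB9 (ERdj4), which also restrains IRE1, had a log2 fold change of 0.21 ± 0.18, DNAJB11 (ERdj3) of 0.20 ± 0.13 and DNAJC3 (P58IPK), an inhibitor of PERK, of -0.17 ± 0.14. For DNAJB9 and DNAJC3, stretch 6 was the lowest of all libraries, with 69.9 CPM of DNAJC3, while for DNAJB11 it was the highest, at 279 CPM. SDF2L1, a partner of ERdj3, was at 4.599 to 10.8 CPM with static and 4.62 to 7.47 CPM with stretch medium (-0.29 ± 0.24). CRELD2, a secreted ER stress protein, was at 83.0 to 112 CPM with static and 89.5 to 115 CPM with stretch medium (0.083 ± 0.11). In edgeR the adjusted p of these 5 genes ran from 0.442 to 0.741. HYOU1, an Hsp110-like chaperone, had 0 to 2 counts in every library, under the floor of 3 counts, so no fold change is given. Fibroblasts usually express this gene, and how its reads were targeted and counted is not given in the sources used, so the counts near 0 do not show that it is not expressed.

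Of the 4 genes of disulfide bond formation, 0 were higher and 1 was lower at an unadjusted p under 0.05, beside 8.08% and 8.37% of all genes. PDIA4 (ERp72, chromosome 7, 149003062 to 149028641) was lower with stretch medium. It was at 26.2, 30.1, 43.4, 29.6 and 34.4 CPM in static 1, 3, 5, 7 and 9 and at 17.2, 26.4, 27.4, 25.1 and 22.7 CPM in stretch 2, 4, 6, 8 and 10. The groups touched at their edges, with stretch 4 and stretch 6 just above static 1. The log2 fold change was -0.46 ± 0.16 (interval -0.80 to -0.12), with an adjusted p of 0.180 in edgeR and 0.102 in DESeq2. PDIA6 was at 698 to 791 CPM with static and 657 to 863 CPM with stretch medium (0.10 ± 0.099). P4HB, the isomerase that is also the beta subunit of collagen prolyl hydroxylase, was at 668 to 967 CPM with static and 539 to 987 CPM with stretch medium (-0.12 ± 0.15), and both its lowest value, in stretch 2, and its highest, in stretch 10, came from stretch medium. ERO1B, an oxidase that recharges the isomerases, was at 2.83 to 4.77 CPM with static and 1.51 to 4.78 CPM with stretch medium, where counting error is largest, and its interval was -0.79 to 0.48.

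Of the 9 genes of ER-associated degradation tested, 4 were higher and 1 lower at an unadjusted p under 0.05, beside 8.08% and 8.37% of all genes, and 2 were higher with no overlap between groups, beside 1.74%. A longer list of other degradation genes did not show this: 1 of 28 was higher, 0 were higher with no overlap, and the median log2 fold change was -0.041, against 0.093 for the 9. SEL1L, SYVN1, OS9 and VCP, the 4 higher genes, act in one route. SYVN1 (HRD1) is a ubiquitin ligase in the ER membrane, SEL1L its scaffold and OS9 a lectin that hands misfolded glycoproteins to SEL1L. VCP (p97) is the ATPase that pulls the marked proteins into the cytosol. This route was named from the genes that were higher, and whether it was higher as a whole was not tested. Of its further VCP partners named below, UBXN6 was at 0.31 on the log2 scale and FAF2, at low counts, at -0.71. The other degradation genes of the set were not higher at that p. HERPUD1, also of the HRD1 complex, was at -0.087 ± 0.11 on the log2 scale. DERL1, DERL2 and EDEM3 were at 0.093, -0.084 and 0.0515, and EDEM1 was lower.

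SEL1L (chromosome 14, 81471549 to 81533861) was at 219.6, 227, 207, 225 and 222 CPM in static 1, 3, 5, 7 and 9 and at 273, 291, 266, 265 and 288 CPM in stretch 2, 4, 6, 8 and 10. The groups did not overlap, and the spread within each was small, with coefficients of variation of 3.63% and 4.45%. The log2 fold change was 0.33 ± 0.088 (interval 0.14 to 0.52), or 25.6% on the linear scale, with an adjusted p of 0.119 in edgeR and 0.00861 in DESeq2. It ran from 0.31 to 0.35 when each library was left out in turn.

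VCP (chromosome 9, 35056064 to 35073249) was at 1369.7, 1395, 1257, 1089 and 993 CPM in static 1, 3, 5, 7 and 9 and at 1482, 1564, 1758, 1569 and 2169.9 CPM in stretch 2, 4, 6, 8 and 10. The lowest stretch value lay above the highest static value, and stretch 10 was the highest by a wide margin. The log2 fold change was 0.49 ± 0.12 (interval 0.22 to 0.75, adjusted p = 0.114 in edgeR and 0.0217 in DESeq2), and it was 0.38 without stretch 10. The promoter window of VCP held the UPRE named above, and those of SEL1L, SYVN1 and OS9 held none of the 4 elements searched.

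SYVN1 was at 14.1, 15.4, 15.5, 11.7 and 11.5 CPM in the static and 16.5, 15.97, 22.0, 13.8 and 18.9 CPM in the stretch libraries, with stretch 8 inside the static range. Its log2 fold change was 0.35 ± 0.16 (adjusted p = 0.286). The gene overlaps FAU and MRPL49. HSP90B1, DNAJB9, DNAJB11, CRELD2, CANX, ERO1B, DERL1 and DERL2 also overlap another annotated gene, and whether the counting used strand is not stated, so reads of these genes may be shared. OS9 was at 135, 137, 103, 122 and 113 CPM in the static and 139, 148, 174, 137 and 136 CPM in the stretch libraries, where stretch 8 and stretch 10 lay below static 3. Its log2 fold change was 0.27 ± 0.11 (adjusted p = 0.258). The unadjusted p of SYVN1 was above 0.05 in 5 of the 10 fits that left out a library, and that of OS9 in 3 of them.

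EDEM1 pointed the other way. It encodes a mannosidase-like protein that marks glycoproteins for degradation and is a known target of XBP1 (chromosome 3, 5187646 to 5219957). Its levels were 60.4, 68.4, 72.3, 74.7 and 55.2 CPM in static 1, 3, 5, 7 and 9 and 32.1, 59.7, 34.7, 45.7 and 52.6 CPM in stretch 2, 4, 6, 8 and 10. Only stretch 4 reached the static range, above static 9. The log2 fold change was -0.56 ± 0.16 (interval -0.90 to -0.22), or -32.2% on the linear scale, with an adjusted p of 0.129 in edgeR and 0.0403 in DESeq2. EDEM3, its paralog, was at 104 to 141 CPM with static and 110.1 to 137 CPM with stretch medium, with an interval of -0.17 to 0.28 for the log2 fold change. The difference between EDEM1 and EDEM3 was not tested.

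The remaining degradation genes overlapped between groups. HERPUD1, a stress-induced membrane protein of the HRD1 complex, was at 144 to 187 CPM with static and 137 to 181 CPM with stretch medium (-0.087 ± 0.11). The derlins DERL1 and DERL2 form the channel through which substrates leave the ER. DERL1 was at 41.4 to 49.01 CPM with static and 40.8 to 54.0 CPM with stretch medium (0.093 ± 0.11), and DERL2 at 5.03 to 9.32 CPM with static and 3.17 to 11.7 CPM with stretch medium (-0.084 ± 0.29), where stretch libraries held both the lowest and the highest value. SEC24D, a cargo adaptor of the COPII coat that exports procollagen (chromosome 4, 118722823 to 118838683), was at 343, 339.95, 337, 288 and 295 CPM in the static and 361, 368, 359, 346 and 381 CPM in the stretch libraries. The groups were apart, but the step was small: 0.18 ± 0.093 on the log2 scale, with an interval of -0.018 to 0.38 and an adjusted p of 0.349. SEC61B, a subunit of the import channel, was at 369 to 435 CPM with static and 363 to 417 CPM with stretch medium, and its interval of -0.22 to 0.18 spanned 0. For SEL1L, VCP and SEC24D, an exact two-sided permutation test over all arrangements of the libraries gave 0.00794, with no adjustment over genes. That is the smallest p it can give, and any gene whose groups do not overlap gets it. It therefore adds nothing to the lack of overlap, which 1.74% of all genes showed as higher and 1.98% as lower.

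The genes were also counted by whether an ERSE or ERSE-II was matched. Among all genes, 8.08% were higher and 8.37% lower at an unadjusted p under 0.05. Of the 10 tested genes with an ERSE or ERSE-II match, 3 had a log2 fold change above 0 and 7 below 0. At an unadjusted p under 0.05, 2 of the 10, XBP1 and CANX, were lower and 0 were higher. Their median log2 fold change was -0.15. Of the 17 tested genes with a promoter entry and neither of these matches, 9 lay above 0, 5 were higher and 2 lower, with a median of 0.051. VCP, which held a UPRE match, was counted among these 17 and was higher. With so few genes in each set, nothing is read from these counts, and the difference between the sets was not tested.

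Known targets of the response were also compared across the libraries. HSPA5 was set against 6 other genes over the 10 libraries by Pearson's r and Spearman's rho of log2 CPM, each with a two-sided permutation test. With HERPUD1 it gave r = 0.683 and rho = 0.673 (permutation p = 0.0321 and 0.0393, adjusted over the 6 relations 0.138 and 0.148). With SDF2L1 it gave r = 0.64 and rho = 0.6 (permutation p = 0.0459 and 0.0742, adjusted over the 6 relations 0.138 and 0.148). None of the 6 relations passed 0.05 after adjustment. Without static 7 and static 9, the libraries farthest from the median of HSPA5, r was 0.587 for HERPUD1 and 0.57 for SDF2L1, and on values centred within each medium it was 0.644 and 0.595.

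For PDIA4 the values were r = 0.476 and rho = 0.467 (permutation p = 0.164 and 0.178, adjusted over the 6 relations 0.247 and 0.266), and without the same libraries r was 0.37. For DNAJB9 the coefficients were negative, with r = -0.572 and rho = -0.612 (permutation p = 0.0823 and 0.0658, adjusted over the 6 relations 0.165 and 0.148), and r was -0.59 without these libraries. HSP90B1 gave r = -0.0633 and rho = -0.164 (permutation p = 0.862 and 0.656, adjusted over the 6 relations 0.914 and 0.787), and XBP1 gave r = 0.0392 and rho = -0.0424 (permutation p = 0.914 and 0.919, adjusted over the 6 relations 0.914 and 0.919). Without these libraries r was -0.0515 for HSP90B1 and -0.297 for XBP1. Within media, centred values gave r = -0.593 for XBP1, -0.0595 for HSP90B1, -0.524 for DNAJB9 and 0.312 for PDIA4, as a description. Each medium has 5 libraries, too few for a correlation of its own.

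**Figure D4:**
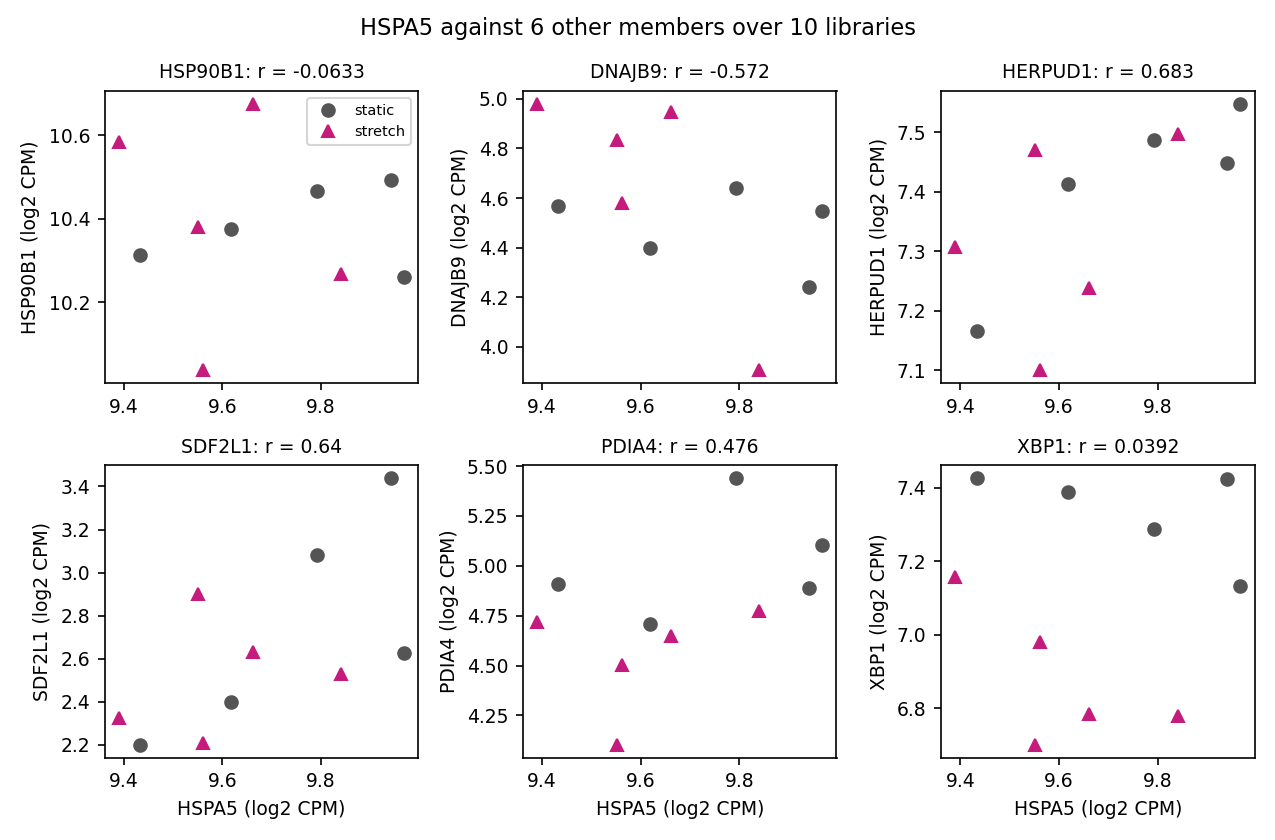
Log2 CPM of HSPA5 (horizontal axes) against 6 other genes (vertical axes) in 5 static (grey circles) and 5 stretch libraries (magenta triangles), with Pearson's r over the 10 libraries. The r is positive for HERPUD1 (0.683) and SDF2L1 (0.64) and negative for DNAJB9 (-0.572), with none past 0.05 after adjustment.

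The median level of the set overlapped between media. The median over the 29 genes of log2 CPM, centred on each gene's mean over 10 libraries, ran from -0.011 to 0.11 in the static and from -0.015 to 0.076 in the stretch libraries. In stretch 4, 16 of the 29 genes lay inside the static range, against 12 or 13 in each of the other stretch libraries. The share of all genes inside that range is not given here, so this count is not particular to the set. Without stretch 4, edgeR called 39 genes over the whole table and 0 of the set, and the adjusted p was 0.0676 for EDEM1, 0.0730 for VCP and 0.0867 for PPP1R15A. For each of these genes that was the smallest adjusted p among the fits that left out a library. The largest were 0.265 for EDEM1, 0.231 for VCP and 0.385 for PPP1R15A. Stretch 2, the library low in VIM, was the lowest of all for XBP1, CANX, PDIA4 and EDEM1 and the highest for PPP1R15A. Without it the log2 fold change was -0.40 for XBP1, -0.34 for CANX, -0.37 for PDIA4, -0.46 for EDEM1 and 0.45 for PPP1R15A, and of these CANX no longer had an unadjusted p under 0.05. The part of the VIM difference in these results was not tested. DERL2 and ERO1B, both at low counts, varied most among the stretch libraries, with coefficients of variation of 50.5% and 43.1%.

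**Figure D5:**
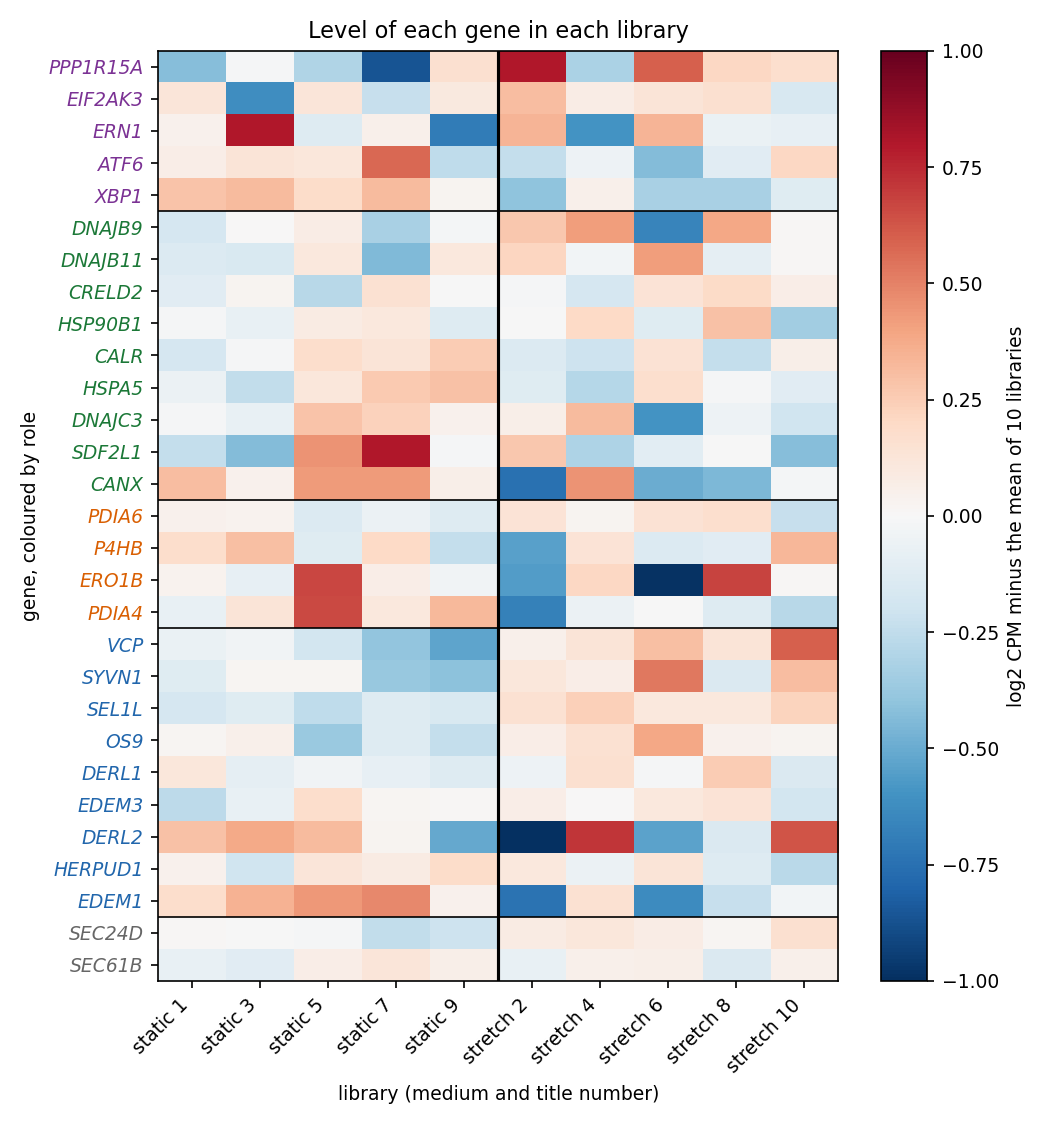
Level of the 29 genes tested (rows, ordered by role and log2 fold change) in the 5 static and 5 stretch libraries (columns), as log2 CPM minus the mean of the 10 libraries. Red is above and blue below that mean, with colours capped at 1 in both directions. SEL1L and VCP are blue in the static and red in the stretch columns, and the stretch 4 column is red for CANX, EDEM1 and DERL2 where most other stretch columns are blue.

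Other genes of the same pathways were read from lists of further names, of which 0 genes passed an adjusted p of 0.05 in edgeR. The counts of higher and lower genes in these lists are at an unadjusted p under 0.05, beside 8.08% higher and 8.37% lower over all genes. Among other stress transducers and effectors 3 of 14 were higher and 2 lower, with a median log2 fold change of -0.15. They included TRIB3, a pseudokinase induced downstream of PERK and ATF4, at 95.9 ± 58.3 and 48.99 ± 3.72 CPM (-0.97 ± 0.30), and NUCB1, a calcium-binding protein that restrains ATF6, at 351 ± 29.6 and 447 ± 73.3 CPM (0.35 ± 0.12). The static libraries of TRIB3 ranged from 43.7 to 183 CPM, and the stretch libraries lay inside that range. ATF4, named after its values were seen, was at -0.28 ± 0.15 (edgeR adjusted p = 0.365), and DDIT3 did not pass the filter on low counts. Among other ER folding factors 2 of 35 were higher and 5 lower (median -0.039). The thioredoxin-like TXNDC12 was at 33.4 ± 3.07 and 20.8 ± 3.66 CPM (-0.68 ± 0.14) and the isomerase-like chaperone ERP29 at 178 ± 19.8 and 115 ± 32.7 CPM (-0.62 ± 0.16). For both the groups did not overlap, and DESeq2 called both. TXNDC12 overlaps the annotated genes KTI12 and BTF3L4, and a pseudogene of ERP29, ERP29P1, was also in the count table. UBXN6, SEC16A and CCPG1, named below, overlap another annotated gene as well.

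Of the genes of N-glycosylation and glycan trimming, 1 of 20 was higher and 2 lower (median -0.040). LMAN1, a cargo receptor for glycoproteins, was at 6.69 ± 2.18 and 3.82 ± 1.38 CPM (-0.84 ± 0.29), and UGGT2, a folding sensor of glycoproteins, at 47.8 ± 13.7 and 35.5 ± 2.60 CPM (-0.43 ± 0.16), with no overlap between groups for UGGT2. Of the other degradation genes, 1 of 28 was higher and 0 lower (median -0.041). UBXN6, a VCP cofactor, was at 76.5 ± 14.5 and 94.6 ± 12.0 CPM (0.31 ± 0.14), and FAF2, which recruits VCP to the ER, at 2.42 to 6.79 CPM with static and 1.13 to 5.83 CPM with stretch medium (-0.71 ± 0.35). Of the other translocon and COPII genes, 2 of 30 were higher and 5 lower (median -0.11). SEC61G, of the import channel, was at 344 ± 21.8 and 276 ± 10.1 CPM (-0.32 ± 0.090) with no overlap, and SEC16A, which organises ER exit sites, at 136 ± 11.9 and 176 ± 21.8 CPM (0.37 ± 0.11). DESeq2 called both. Of the ER-phagy receptors, 0 of 5 were higher and 0 lower (median -0.19), with ATL3 at -0.19 ± 0.094 and CCPG1 at -0.32 ± 0.17.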

How the data were processed

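RNA was measured in 10 MRC5 libraries, 5 with static and 5 with stretch medium. Per the labels' protocols, Trizol RNA went into Ion AmpliSeq transcriptome libraries. Amplified reads are not independent molecules, so floors cover only the error of counting. The submitters' processing notes name fastp 0.20.1, Salmon 1.9 and hg38/GRCh38. Which annotation and strand setting were applied is not given in the sources used. The authors deposited unscaled integer counts by gene, whose columns were matched to samples through title numbers. Every gene in the table was above 0 in at least 5 libraries.

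The test was edgeR 4.0.16 under R 4.3.3 (filterByExpr with a minimum count of 10 and total of 15, TMM, quasi-likelihood test, Benjamini-Hochberg over 10968 genes, threshold 0.05). Log2 CPM used a prior count of 2. ± is the standard error of the fit after a log2 fold change and the SD over 5 libraries after CPM. Correlations used 100000 resamples. The fit was tested on simulated data. Symbols matched 13831 of 14054 identifiers. Positions are from GENCODE release 29 on GRCh38. The chi-square per degree of freedom between libraries of a group was at least 6.05, so all 10 were kept as separate. No block was used, because the groups share no title number. DESeq2 1.42.0, limma-voom (limma 3.58.1), other scalings and filters, the title number as a covariate, a threshold of 0.1 and leaving out each library were alternatives. Named genes were all members, the 2 smallest p-values of each of 6 further lists, and detected markers (3 for fibroblasts). Planned protein features were not run. Members and lists were chosen with earlier results of these data known.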

Additional observations from a re-analysis of the deposited data

Results flagged for a closer look

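ERO1B in static 5 was at 4.77 CPM, apart from the other static libraries at 2.83 to 3.13 CPM. The gap took 0.809 of the range of the group on the log2 scale, past Dixon's 95% critical value for 5 samples. It was the only one of 58 groups checked (29 genes in each medium), and chance marks about 1 in 20 groups. Without static 5, the log2 fold change of ERO1B, -0.15 in full, was just above 0.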

How the results depend on the processing

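Over all genes, where the primary test called 0, DESeq2 called 275, limma-voom 1, and edgeR at an adjusted p of 0.1 called 61. With each library left out, edgeR called 0 to 39 genes (39 without stretch 4, 2 without stretch 6, 1 without stretch 10, 0 otherwise). Of the 29 genes of the set, DESeq2 called 4 and every other setting 0, with 1804 genes of the table at an unadjusted p under 0.05. The set's count at an unadjusted p was 3 to 5 higher (5 in full, 3 without static 9) and 3 to 5 lower (4 in full) with a library left out. With a library left out its median log2 fold change ran from -0.045 (without static 1) to 0.034 (without stretch 6), and over the other settings from -0.049 (no filter) to 0.029 (the stricter filter), so its sign is not fixed. ERN1 was at 0.011 with the title number as a covariate. With a library left out, 6 genes near 0 changed sign: ERN1 (-0.23 to 0.18), HSP90B1 (-0.054 to 0.10), ERO1B (-0.43 to 0.034), EDEM3 (-0.0043 to 0.10), DERL2 (-0.30 to 0.092) and SEC61B (-0.056 to 0.0097); the cause was not tested. None of these had an unadjusted p under 0.05. CANX lost an unadjusted p under 0.05 without static 5, static 7, stretch 2, stretch 6 or stretch 8. No paired analysis was run. The groups share no title number, and whether neighbouring numbers form pairs is not stated.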

Other observations

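Some further genes of ER import and export, stress signalling and glycan trimming had an unadjusted p under 0.05 in edgeR. These genes were picked here after their values were seen. At that p, 8.08% of all genes were higher and 8.37% lower. Of the signal peptidase, which trims proteins entering the ER, 2 subunits were lower with stretch medium. SEC11A was at -0.55 ± 0.18 and SEC11C at -0.51 ± 0.20 on the log2 scale. Its subunits SPCS1 (-0.17 ± 0.12) and SPCS3 (-0.22 ± 0.13) had an unadjusted p above 0.05. SSR2, a subunit of the translocon-associated complex, was at -0.32 ± 0.12, and the COPII adaptor SEC24A at -0.46 ± 0.16. Of its paralogs, SEC24B was at -0.11 ± 0.16 and SEC24D at 0.18 ± 0.093, both with an unadjusted p above 0.05. The difference between these paralogs was not tested. ATF3, from the list of other stress transducers and effectors, was also lower, at -0.66 ± 0.25. Higher values were found for KDELR1, a receptor that returns chaperones to the ER (0.23 ± 0.098), and MBTPS1, 1 of the proteases that cut ATF6 (0.25 ± 0.12). CREB3L2, an ER-anchored transcription factor of secretory cells (0.29 ± 0.13), and MOGS, the glucosidase that begins glycan trimming (0.45 ± 0.18), were higher too. MBTPS2, another protease that cuts ATF6, was at -0.13 ± 0.12, with an unadjusted p above 0.05. For the genes picked at an unadjusted p under 0.05, edgeR's adjusted p ran from 0.161 (SEC11A) to 0.302 (MBTPS1), so none of them passed 0.05.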
